A study of Rattus norvegicus with 6 samples.

Results

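The globin and haem synthesis genes are 8 rows of the deposited table, chosen by symbol: the alpha globin rows Hba-a1, Hba1 and Hba2, the beta globin row Hbb, and the enzyme genes Alas1, Alas2, Urod and Fech. All 8 were found among the 17525 genes. They were measured in primary granulosa cells, the follicle cells around the oocyte, from ovaries of SD rats aged 21 days that had received 60 IU of PMSG, a gonadotropin that stimulates follicle growth, 48 h before. The titles name 3 libraries ATR and 3 Control. The series' title concerns long atrazine exposure, atrazine being a herbicide, but no label spells out ATR, and the sources used here give neither the dose nor the length of exposure. Values come from the libraries ATR 1, ATR 2 and ATR 3. Those of the Control group are not analysed here, and nothing below measures the effect of an exposure. Each library held 18677212 to 19170552 reads assigned to genes. The labels do not say whether the libraries came from separate animals or cultures, so errors (SD, n = 3) and tests measure only the spread between these libraries, which may be technical.

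Haemoglobin of the adult red cell joins alpha and beta globin chains, each holding a haem, and red cell precursors make both chains in balance. Haem itself is made in all nucleated cells. Its synthesis starts in the mitochondrion, where ALAS joins glycine and succinyl-CoA, passes through the cytosol, and ends in the mitochondrion, where ferrochelatase inserts iron. ALAS has a form found in all tissues (Alas1) and an erythroid form (Alas2). In the ovary, haem is the cofactor of the cytochrome P450 enzymes that make steroid hormones.

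Of the 8 genes, 6 had a mean of at least 1 TPM (transcript level scaled for length and library size), against 71.4% of all genes, and their median was 39.8 TPM against 10.1 TPM. The cells held much alpha globin RNA, hardly any RNA of the beta globin row and the ubiquitous but not the erythroid form of ALAS. The upstream sequences of these globin genes are shown first, because the alpha rows differed in level and Hbb was nearly silent. The Urod sequence is given beside them as that of a broadly expressed enzyme of haem synthesis. All 8 members were matched by gene identifier to RefSeq sequences of the build GRCr8. RefSeq there calls the table's row Hba-a1 Hba-a3, its row Hba1 Hba-a1 and its row Hba2 Hba-a2. The table's own symbols are used below. Each sequence is the 250 bases before the gene's start, 5′ to 3′ on the gene's strand, and all 5 genes lie on the minus strand: the row Hba-a1 at chr10:15816944-15817193, Hba2 at chr10:15829139-15829388, Hba1 at chr10:15842581-15842830, Hbb at chr1:167663722-167663971 and Urod at chr5:135705381-135705630. Capitals mark matches, on either strand, to CCAAT (the CCAAT box), TATAAA (the TATA box), TGATAA or AGATAA (letters bound by GATA factors), CACCC (bound by KLF factors) and GGGCGG (the GC box).
Hba-a1: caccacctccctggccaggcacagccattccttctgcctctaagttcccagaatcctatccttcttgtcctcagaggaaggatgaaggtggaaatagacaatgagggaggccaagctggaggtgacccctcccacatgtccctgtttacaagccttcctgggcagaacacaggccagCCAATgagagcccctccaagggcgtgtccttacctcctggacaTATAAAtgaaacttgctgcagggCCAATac
Hba2: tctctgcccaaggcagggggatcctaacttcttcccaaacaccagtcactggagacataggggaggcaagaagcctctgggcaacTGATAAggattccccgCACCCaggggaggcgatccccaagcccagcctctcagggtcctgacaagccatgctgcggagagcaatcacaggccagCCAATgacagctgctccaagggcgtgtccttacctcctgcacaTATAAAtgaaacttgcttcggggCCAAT
Hba1: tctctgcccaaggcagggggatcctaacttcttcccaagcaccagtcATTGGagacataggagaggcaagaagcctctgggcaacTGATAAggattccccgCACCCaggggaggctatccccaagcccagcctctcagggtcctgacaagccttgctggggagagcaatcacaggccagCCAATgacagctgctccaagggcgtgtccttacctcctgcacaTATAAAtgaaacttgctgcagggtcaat
Hbb: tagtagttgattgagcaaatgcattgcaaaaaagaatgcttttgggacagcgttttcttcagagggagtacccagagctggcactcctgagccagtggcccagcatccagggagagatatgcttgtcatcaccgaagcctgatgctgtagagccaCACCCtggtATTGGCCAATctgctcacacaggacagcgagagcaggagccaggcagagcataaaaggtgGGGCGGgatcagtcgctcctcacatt
Urod: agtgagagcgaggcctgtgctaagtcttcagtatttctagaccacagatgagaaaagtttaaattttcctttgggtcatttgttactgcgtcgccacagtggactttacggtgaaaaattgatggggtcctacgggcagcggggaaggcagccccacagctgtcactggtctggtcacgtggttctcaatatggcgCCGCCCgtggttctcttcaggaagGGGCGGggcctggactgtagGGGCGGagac
The upstream sequences of Hba1 and Hba2 were 96.4% identical over an alignment of 250 bases. That of the row Hba-a1 was 62.4% identical to the Hba1 sequence and 63.1% to the Hba2 sequence. The 3 alpha sequences were 44.8% to 46.8% identical to that of Hbb. Aligned in the same way, they were 45.7% to 48.0% identical to that of Alas1, which is no globin gene. For Alas2 the values were 40.7% to 42.7%.

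All 3 alpha sequences held TATAAA, 28 to 30 bases before the start, and CCAAT, 71 to 73 bases before it. TATAAA was found in 12.9% and CCAAT in 34.0% of the 33469 RefSeq upstream sequences of this length. Hba1 and Hba2 also held TGATAA, 165 bases before the start, and CACCC, 149 bases before it. The row Hba-a1, the alpha row with the highest level, held neither, and a link of these letters to level was not tested. TGATAA was found in 7.97%, AGATAA in 10.3% and CACCC in 49.2% of all sequences. Hbb held CCAAT on both strands, with the pair abutting 86 and 81 bases before the start, and CACCC at 95 bases. Urod and Fech each held GGGCGG 3 times, against 30.5% of all sequences with at least 1 match, and neither TATAAA nor CCAAT. Hbb also held GGGCGG, 26 bases before the start, whereas Alas1 held none. AGATAA was found in Fech, 135 bases before the start, and in Alas2, at 136 bases. These matches describe the letters of the windows alone.

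Alpha globin RNA came mostly from 1 row. In ATR 1, ATR 2 and ATR 3 the row Hba-a1 stood at 537, 424.5 and 409 TPM. With a mean of 457 ± 69.5 TPM it ranked 344 of the 17525 genes, and 2597 when ranked by CPM (reads scaled to library size but not to length). The row was 4.27 times as high as the next member, Alas1, and its lowest library lay above the highest of Alas1. Hba2 stood at 65.7, 40.5 and 46.9 TPM, and Hba1 at 23.8, 23.3 and 22.7 TPM. Hba2 lay above Hba1 in every library, by 2.76, 1.73 and 2.06 times. Together the alpha rows held 626, 488 and 479 TPM (531 ± 82.4), of which Hba-a1 made up 85.5% to 86.9%. ATR 1 was thus the highest library for the sum, and ATR 2 and ATR 3 lay close together.

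The alpha genes are similar copies, and their estimated counts were not whole numbers, as in no other member. Reads may therefore have been divided between the 3 rows, and their single levels are uncertain. In reads, Hba-a1 had 1851, 1472 and 1450, Hba2 295, 183 and 216, and Hba1 110, 108 and 107. The reads behind 1 TPM were fewer for Hba-a1 than for Hba1, by a factor of 0.749, so a part of its lead in TPM comes from the transcript length used. Its lead in reads is not scaled by that length, but rests on a division of shared reads that is not known.

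The beta globin row Hbb was near the counting limit. Hbb had 1, 1 and 3 reads (0.19, 0.19 and 0.56 TPM) and ranked 13844. Pooled over the libraries and per transcript length, the alpha rows exceeded Hbb by a factor of 1695, with an exact (Clopper-Pearson) 95% interval of 726 to 5222 from 5792 reads against 5. This interval and those below cover counting error only. Another beta globin gene, Hbb-bs (the row LOC689064, identified by gene ID and added after its values were seen), had 0, 2 and 0 reads. RefSeq lists further beta globin genes beside them, Hbb-b1, Hbb-b2 and Hbbl1, which are not analysed here. The ratio is therefore that of the alpha rows to the Hbb row and not to all beta globin RNA.

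**Figure D1:**
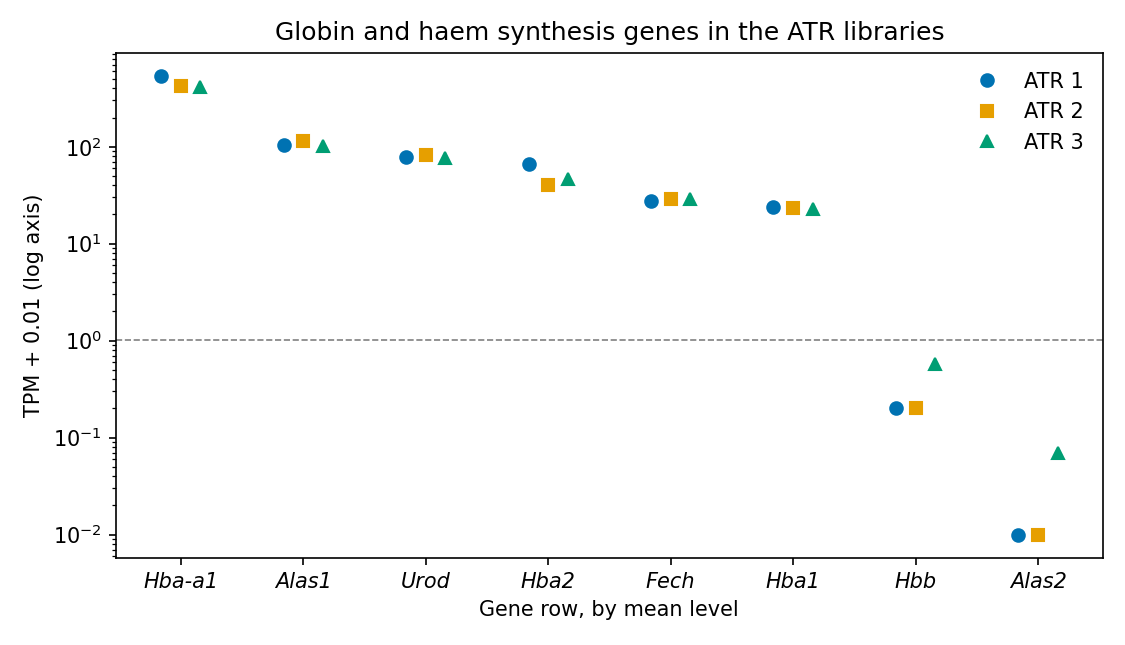
TPM of the 8 genes in each of the 3 ATR libraries (points, 1 per library) on a log axis after adding 0.01, with genes ordered by mean level and a dashed line at 1 TPM. The row Hba-a1 lies highest at 409 to 537 TPM, and Hbb and Alas2 lie below 1 TPM in every library.

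Other globins on the list, 21 symbols of which 11 had a row, were mostly low: 5 reached a mean of 1 TPM, the 3 alpha rows among them. Hbq1b, a theta globin gene that lies between Hba2 and Hba1, stood at 19.2, 13.5 and 16.95 TPM. The embryonic beta-like Hbe1 stood at 6.41, 8.60 and 10.9 TPM. The embryonic genes Hbg1 and Hbe2 had at most 2 reads in a library. Cygb (cytoglobin, found in fibroblast-like cells of many organs) stood at 0.633 ± 0.160 TPM, and Ngb (neuroglobin) had 0, 4 and 2 reads. Hbe1 thus had more reads than Hbb in each library.

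The genes beside the alpha cluster were also expressed. Of measured protein-coding genes, the nearest on one side was Luc7l (a splicing factor), at 36.3, 34.1 and 32.6 TPM. On the other side these were Nprl3, whose introns hold the main alpha globin enhancers in mammals, at 17.8, 18.6 and 17.0 TPM, and the DNA glycosylase gene Mpg at 10.6, 9.75 and 8.12 TPM. Neighbours of the cluster thus lay far below the row Hba-a1 and nearer to Hba1. They were chosen by position after the levels were known.

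Levels of the markers of red cells were low for most of the list. Of 17 measured erythroid markers, 14 had a mean below 1 TPM, and the list's median was 0.133 TPM against 10.1 TPM over all genes. Slc4a1 (band 3, the red cell anion exchanger) had 1, 6 and 4 reads. The erythroid transcription factor genes Gata1 and Klf1 had 2, 2 and 1 and 3, 7 and 2 reads. Rhag had 0, 1 and 0 reads, Hemgn 0, 0 and 1 and Tal1 1, 0 and 0. Ahsp, the chaperone of free alpha globin, stood at 2.82, 1.94 and 2.74 TPM, from 13, 9 and 13 reads. The members above 1 TPM besides Ahsp were Gypc at 36.3 ± 2.28 and Sptb at 9.58 ± 0.949 TPM, both also expressed outside red cells. Summed over the list, the markers held 49.8, 51.0 and 51.4 TPM, and without Gypc and Sptb 5.53, 4.43 and 4.79 TPM. The alpha globin sum exceeded the whole list's in every library.

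**Figure D2:**
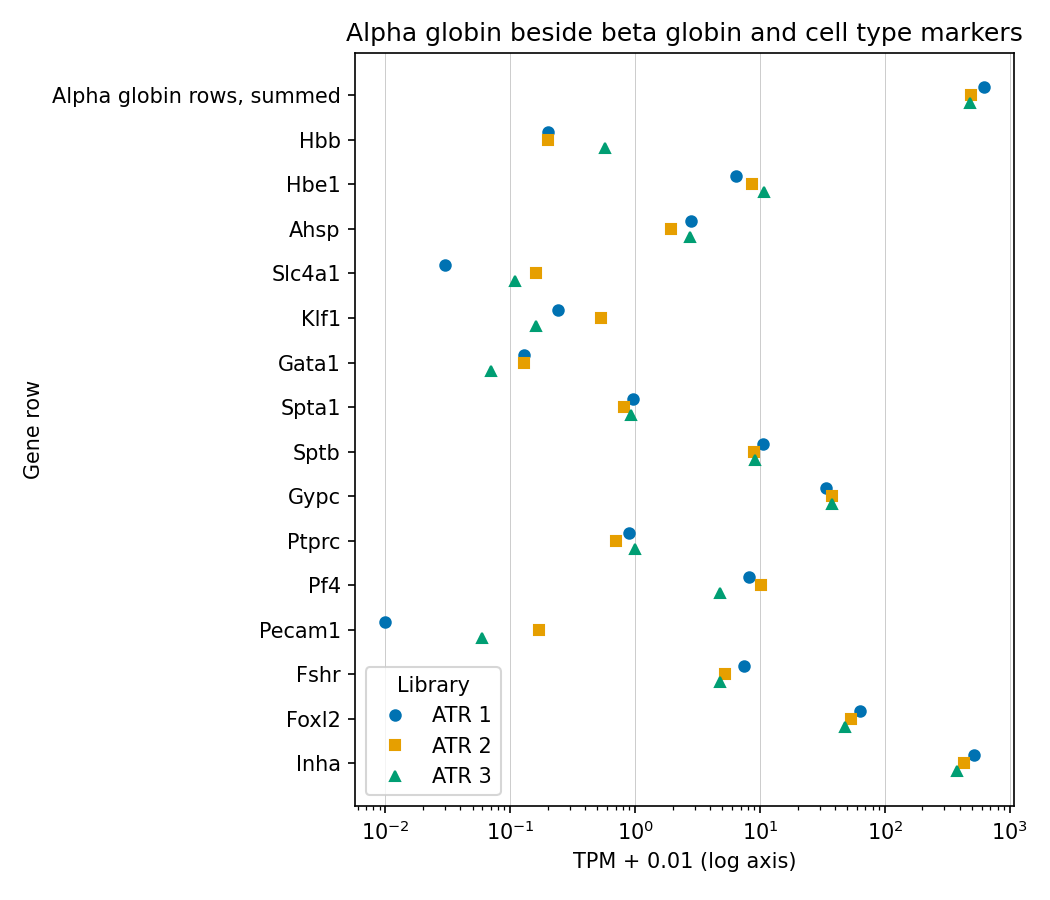
TPM in each ATR library (points) on a log axis after adding 0.01, for the summed alpha globin rows, the beta-like genes Hbb and Hbe1, and markers of red cells (Ahsp to Gypc), leukocytes (Ptprc), platelets (Pf4), endothelium (Pecam1) and granulosa cells (Fshr, Foxl2, Inha). The alpha globin sum of 479 to 626 TPM lies beside Inha, while Hbb, Slc4a1, Klf1 and Gata1 lie below 1 TPM. Only some markers of each list are shown. Those left out include Lyz2 (leukocytes, mean 74.0 TPM), Kdr (endothelium, 3.28 TPM) and Cyp19a1 (granulosa cells, 0.0567 TPM).

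Granulosa markers were present for the most part, with Inha (inhibin alpha) at 522, 427 and 378 TPM and the ovarian transcription factor gene Foxl2 at 63.6, 53.8 and 48.0 TPM. Fshr, the receptor the submitters stained to identify the cells, stood at 7.38, 5.25 and 4.77 TPM, while the aromatase gene Cyp19a1 had at most 2.33 estimated reads and Amh at most 2. Of 7 measured leukocyte markers 6 reached 1 TPM, the lysozyme gene Lyz2 highest at 74.0 ± 12.1 TPM and Cd68 at 12.7 ± 1.91 TPM, while the pan-leukocyte gene Ptprc stood at 0.85 ± 0.147 TPM. Of 5 measured endothelial markers 1 reached 1 TPM, Kdr at 3.28 ± 0.235 TPM, while Pecam1 had 0, 3 and 1 reads. Pf4, a platelet chemokine gene, stood at 8.19, 10.2 and 4.78 TPM, but Itga2b and Gp1ba stayed below 1 TPM.

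Of the ALAS genes, Alas1 was well expressed and Alas2 was near the counting limit. Alas1, the rate-limiting enzyme gene outside red cells, stood at 105, 114 and 102 TPM (107 ± 6.31) and ranked 1740. Alas2, the erythroid form, had 0, 0 and 1 reads. On the log2(TPM + 0.5) scale Alas1 lay above Alas2 by 7.72, 7.84 and 7.52 in the 3 libraries, a mean of 7.69 ± 0.16. This difference depends on the 0.5 added to Alas2. The read ratio per transcript length was 5354 with an exact 95% interval of 961 to 211506, its width set by the single Alas2 read.

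The other enzyme genes of the list were all expressed, at unequal levels, and the list of 8 had a median of 36.1 TPM. Urod, which removes some of the carboxyl groups of uroporphyrinogen, stood at 77.7, 81.2 and 77.2 TPM. Fech (ferrochelatase, the last step) stood at 27.8, 29.0 and 29.2 TPM. Between these members by level, Cpox, which makes protoporphyrinogen from coproporphyrinogen, stood at 64.8 ± 6.17 TPM. Alad, the early cytosolic enzyme that forms the pyrrole, stood at 41.0 ± 2.48 TPM. Ppox, the last oxidation step, stood at 31.1 ± 1.18 TPM. Uros, which closes the ring, was the lowest enzyme gene after Alas2 at 9.05 ± 1.11 TPM, 11.8 times below Alas1. In the order Alas1, Urod, Cpox, Alad, Ppox, Fech, Uros and Alas2, the libraries of neighbours did not overlap. Summed, these 8 enzyme genes held 357, 379 and 345 TPM (360 ± 17.5), less than the row Hba-a1 alone in each library.

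**Figure D3:**
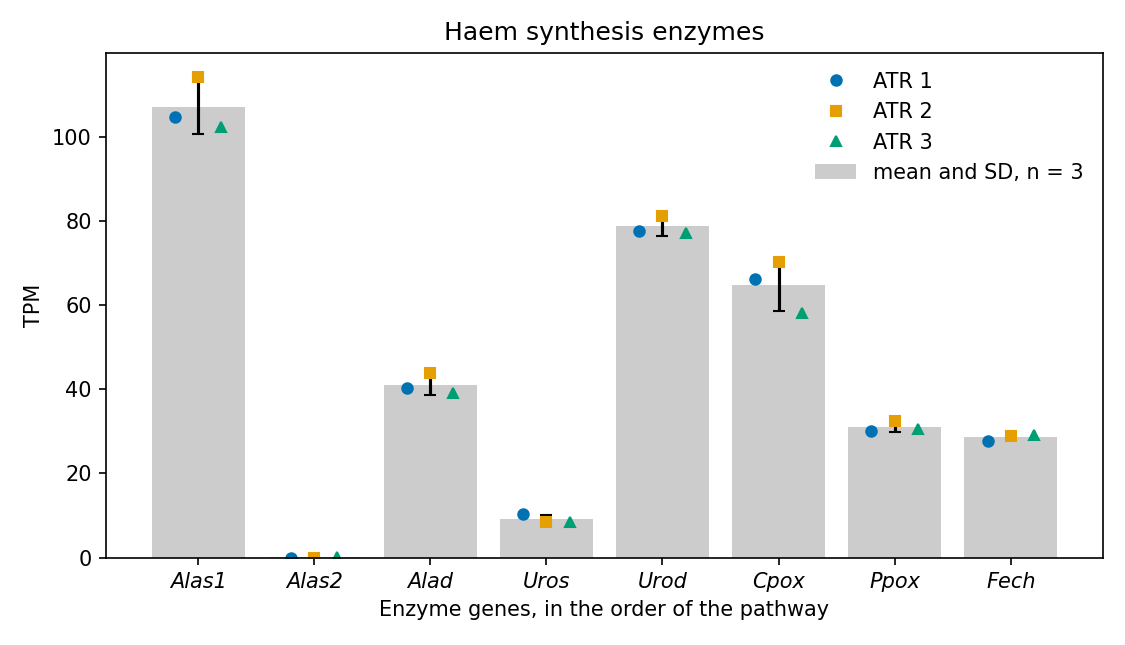
TPM of 8 haem synthesis enzyme genes in the order of the pathway, with bars for the mean, error bars for the SD (n = 3) and points for each ATR library. Alas1 is highest at 107 TPM, Uros stands at 9.05 TPM and Alas2 at 0.02 TPM.

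Genes that move or break down haem were expressed for 20 of 21 list members at 1 TPM or more (list median 15.9 TPM). The highest were Pgrmc1, a haem-binding membrane protein gene, at 425 ± 15.9 TPM, Lrp1, which takes up haemopexin with haem, at 233 ± 1.37 TPM, and Hmox1 (haem oxygenase 1, the inducible enzyme that breaks haem down) at 211 ± 20.3 TPM. The constitutive Hmox2 stood at 40.0 ± 1.57 TPM and the biliverdin reductase genes Blvrb and Blvra at 108 ± 5.15 and 58.3 ± 3.81 TPM. The haem exporter Flvcr1 was low at 2.38 ± 0.259 TPM, and Cd163, the macrophage receptor for haemoglobin bound to haptoglobin, had 0, 0 and 1 reads. All 11 genes listed under mitochondrial iron and cluster supply reached 1 TPM (list median 42.2 TPM). They were led by the scaffold gene Iscu at 188 ± 7.59, the carrier gene Slc25a39 at 127 ± 7.21 and Sucla2 at 73.9 ± 0.693 TPM. The list also holds genes with other roles, Sucla2 among them. The erythroid iron importer Slc25a37 (mitoferrin 1) stood at 6.68 ± 0.548 TPM and its broadly expressed relative Slc25a28 at 23.5 ± 3.09 TPM.

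Among 13 genes known to act on ALAS, 9 reached 1 TPM, and the median was 18.2 TPM. They were led by Hif1a at 89.3 ± 5.57, the forkhead factor gene Foxo1 at 79.6 ± 5.24 and the protease gene Lonp1 at 79.1 ± 1.18 TPM. Ppargc1a, the coactivator that raises Alas1 in fasted liver, had 1, 3 and 5 reads, and the xenobiotic receptor genes Nr1i2 and Nr1i3 had at most 2. Of 19 measured genes of haem-holding or partner proteins, 16 reached 1 TPM (list median 76.2 TPM), led by the prostacyclin synthase gene Ptgis at 719 ± 10.1, the succinate dehydrogenase subunit gene Sdhc at 231 ± 3.36 and Cycs (cytochrome c) at 222 ± 20.5 TPM. The steroidogenic P450 gene Cyp11a1 stood at 1.02 ± 0.270 TPM, so Alas1 lay far above it.

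Spread beyond counting noise was tested for every gene with at least 30 reads by a chi-square test of its 3 counts, and a gene passed at a Benjamini-Hochberg adjusted p below 0.05. Such a test sets library against library, not condition against condition. Over all genes 3087 of 13309, or 23.2%, passed. Among the 8 members 6 had enough reads, and 3 of them passed: Hba-a1, Hba2 and Alas1. The members were chosen with levels in these libraries known, so this count is a description.

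Alpha globin was highest in ATR 1. Hba-a1 had an adjusted p of 2.56e-12 and Hba2 one of 1.64e-05 by the chi-square test, whereas Hba1 had one of 0.988. Reads of Hba-a1 in ATR 1, scaled to library size, exceeded those of ATR 2 and ATR 3 pooled 1.26 times (95% interval 1.18 to 1.33). For Hba2 the ratio was 1.47 (1.26 to 1.71) and for Hba1 1.01 (0.799 to 1.28). The Hba1 interval includes the ratio of Hba-a1, so these values do not show that Hba1 and Hba-a1 differ. Neither the test nor the intervals cover a division of shared reads between the alpha rows. Summed over the alpha rows the ratio was 1.27 (1.20 to 1.33), while ATR 2 and ATR 3 had a ratio of 1.01 (0.945 to 1.08) to each other. Without ATR 1, Hba-a1 and Hba2 no longer passed, with adjusted p of 0.699 and 0.399. The SD of log2(CPM + 0.5) was 0.19 for Hba-a1 and 0.326 for Hba2, against a median of 0.072 over 10506 genes with at least 5 CPM. Of those genes, 8.37% had a larger SD than Hba-a1 and 2.46% a larger one than Hba2.

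Some markers of granulosa cells were highest in ATR 1, as Hba-a1 and Hba2 were. Of 6 tested granulosa markers 5 passed, and all 5 were highest in ATR 1, against 8.26% of all tested genes that passed and were highest there. The ratio of ATR 1 to the other libraries was 1.27 (1.23 to 1.31) for Inha, 1.22 (1.15 to 1.29) for Foxl2 and 1.44 (1.16 to 1.77) for Fshr. Gata4 and Gja1 differed less, at 324, 291 and 292 CPM and at 2992, 2797 and 2751 CPM in ATR 1, ATR 2 and ATR 3. Without ATR 1, Fshr, Gata4 and Gja1 no longer passed, with adjusted p of 0.767, 0.981 and 0.0532, nor did Fshr without ATR 3, at 0.0575. Nr5a1 did not pass (adjusted p of 0.171) and was highest in ATR 2. Inha and Foxl2 were also higher in ATR 2 than in ATR 3, by ratios of 1.12 (1.08 to 1.17) and 1.11 (1.03 to 1.20), where the alpha sum had a ratio of 1.01. The summed level of the 8 granulosa markers was 2894, 2593 and 2492 TPM. That of the 17 erythroid markers was lowest in ATR 1 with Gypc and Sptb and highest there without them, at 5.53 TPM against 4.43 and 4.79 TPM. Of the 4 erythroid markers with enough reads only Sptb passed, highest in ATR 1 (adjusted p of 0.0151, and 0.873 without ATR 1). The summed level of 7 leukocyte markers was 97.2, 123 and 120 TPM, also lowest in ATR 1. Most of this sum was Lyz2, at 60.2, 78.6 and 83.2 TPM, the only marker of the 7 that passed. Not all of the 7 were lowest in ATR 1: Cd68 was lowest in ATR 3 and Ptprc in ATR 2. The part of the granulosa and erythroid markers in the alpha globin difference was not tested. In bulk RNA, more cells of a type and more RNA per cell cannot be told apart.

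Among the enzymes of haem synthesis, Alas1 and Cpox varied beyond counting noise. They were 2 of 7 tested enzyme genes of the list, against 23.2% of all tested genes, and both were highest in ATR 2, where 7.42% of all tested genes passed and were highest. Alas1 had an adjusted p of 0.00276. Its reads in ATR 2 exceeded those in ATR 3 by 1.11 times (1.04 to 1.18), and without ATR 2 its adjusted p was 0.973. Cpox had an adjusted p of 1.74e-05 and a ratio of ATR 2 to ATR 3 of 1.20 (1.12 to 1.29), and without ATR 3 its adjusted p was 0.0842. Urod (0.579) and Fech (0.494) did not pass, with ratios of ATR 2 to ATR 3 of 1.05 (0.950 to 1.15) and 0.991 (0.897 to 1.10). The median deviation of the tested enzyme genes from their own mean was -0.05, 0.08 and -0.05 in ATR 1, ATR 2 and ATR 3 on the log2 scale.

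**Figure D4:**
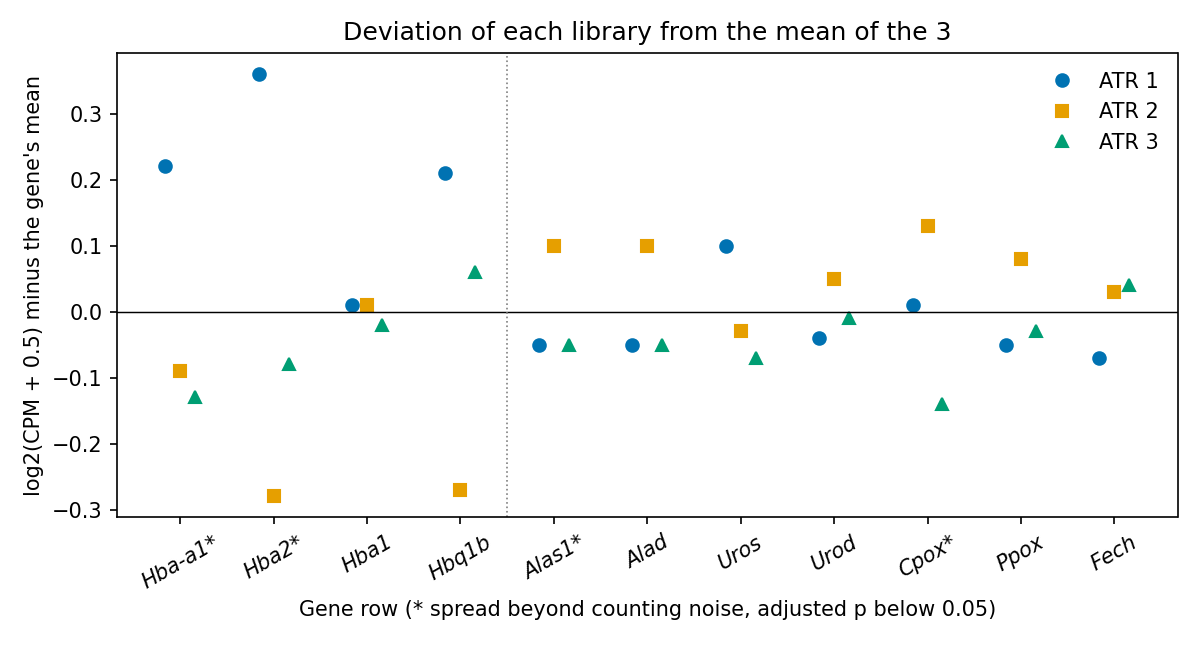
Deviation of log2(CPM + 0.5) in each ATR library (points) from the gene's mean over the 3, for the alpha rows and Hbq1b (left of the dotted line) and the haem synthesis enzyme genes with enough reads (right), with an asterisk where the spread passed the chi-square test. Hba-a1, Hba2 and Hbq1b are highest in ATR 1, and Alas1 and Cpox in ATR 2.

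The related lists differed in how many genes passed, against 23.2% of all tested genes. A call also depends on the number of reads. With 94267 reads, Lrp1 passed although its highest library had only 1.04 times the CPM of its lowest. With 94 reads, Hbe1 did not pass at 1.74 times. Of 20 tested genes of haem transport and breakdown 3 passed: Hmox1 and Pgrmc1, highest in ATR 2, and Lrp1, highest in ATR 3, where 7.51% of all tested genes passed and were highest. Hmox1 stood at 196, 234 and 203 TPM, and its adjusted p of 7.78e-13 became 0.108 without ATR 2. Pgrmc1 and Lrp1 lost the call too, without ATR 2 (0.0553) and without ATR 1 (0.866). Of 11 genes listed under mitochondrial iron and cluster supply Slc25a39 passed, with an adjusted p of 0.00419. This became 0.465 without ATR 1 and 0.0782 without ATR 2. Slc25a28 lay at the threshold, with 0.05003, and passed with library totals (0.0425) and with DESeq2 size factors (0.0465). Of 10 tested ALAS regulators 4 passed: Ppargc1b, Foxo1, Ireb2 and Hif1a, each losing the call without 1 library or another. Of 16 tested genes of haem-holding or partner proteins 9 passed, and 6 of the 9 were highest in ATR 2. Among the 9, Cyp1b1 (134, 207 and 152 TPM) and Por, the electron donor of microsomal P450 enzymes (77.1, 108 and 86.3 TPM), kept the call without any 1 library. So did Ptgs1 (9.21, 57.06 and 29.15 TPM), Cycs and Cat.

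Genes with the profile over the 3 libraries nearest to each tested member were found by the Euclidean distance of log2(CPM + 0.5) deviations among genes with at least 5 CPM. With 3 libraries many genes lie close by, and the distances describe these libraries alone. Nearest to Hba-a1 were Tmem39b (distance 0.00725), Rpgrip1l (0.00894) and S1pr1 (0.0163). S1pr1 stood at 47.6, 37.1 and 36.4 TPM. Nearest to Hba2 were Samd9l (0.0178), Casp6 (0.0393) and LOC103691988 (0.0477), and to Hba1 Trim28 (0.00113), Ppp1r8 (0.00169) and Fam174a (0.00186). For Alas1 these were Med16 (0.00108), Rab34 (0.00117) and Abhd13 (0.00221). Fech had Utp3 (0.000902), Supt3h (0.00207) and Frrs1 (0.00283), and Urod had Gcn1l1 (0.00182), Bckdk (0.00199) and Ccdc82 (0.00221). No member was among the nearest genes of another.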

How the data were processed

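Poly(A) RNA of primary rat granulosa cells was read as paired ends on an MGI2000, per the labels' protocols, which describe no strand-marking step. For each gene the authors deposited a TPM value and an estimated count, per the file headers. Tools listed in the submitters' processing notes, without roles, are StringTie 2.1.5, HISAT2 2.2.1 and fastp 0.20.1, with the builds Rnor_6.0 and GRCm38. The sources used here do not say how shared reads were divided. Counts are not whole (tolerance 0.001) for 19.0% to 19.2% of genes. They were rounded, scaled with TMM (edgeR 4.0.16, R 4.3.3) and tested as described, with scripts checked on simulated data (Python 3.11.15, scipy 1.17.1). Tables of haem and marker genes covered relatives, transport, regulators and cell types. Named were all members, the 3 highest genes of each list of haem genes, further list genes, and the 3 nearest in profile. The members and lists were chosen with earlier results of these data known, and 2 genes of the lists are not reported here. Upstream sequences are from RefSeq (GRCr8) and were aligned globally with Biopython 1.88 (match 1, mismatch -1, gap opening -3, extension -0.5). The files' build differs, so no coordinates of measured features are given. Alternatives were other scalings, count limits, levels and pseudocounts, and each library left out. The planned contrast of ATR with Control was not run.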

Additional observations from a re-analysis of the deposited data

How the results depend on the processing

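No paired analysis was possible because only ATR libraries were analysed, and the contrast with Control and its alternatives were not run. The count of 3 varying members was 3 with library totals, DESeq2 size factors or a limit of 10 reads. It was 1 of 3 tested among genes with whole counts alone, which leaves out the alpha rows, and 1 to 3 with 1 library left out, lowest without ATR 1. Summing the alpha rows to 1 (added after seeing the data) gave 2 of 4, with an adjusted p of 8.04e-16 for the sum. Over all genes 3087 varied, and 1526 (without ATR 1) to 2230 (without ATR 3) with 1 library left out, where fewer libraries are tested. The count of 6 members at 1 TPM was the same at 0.5 and 5 TPM. The difference of Alas1 and Alas2, 7.69 on the log2(TPM + 0.5) scale, was 9.84 with 0.1 added and 6.73 with 1 added, since Alas2 is at 0 in 2 libraries. Without the row Hba-a1 the alpha sum was 74.3 in place of 531 TPM. Hbq1b passed the chi-square test without ATR 3 alone (adjusted p 0.0266). At this depth Hbb and Alas2, with 5 and 1 reads in all, cannot be compared between libraries.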
